A study of Mus musculus with 15 samples.

Results

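The 37 genes described here carry DNA damage signals and repair breaks by homologous recombination, and they were chosen by name as checkpoint kinase, homologous recombination and Fanconi genes. All 37 were found among the 45706 genes of the count table, and all 37 were among the 18983 genes that passed the filter on low counts. Their RNA was measured in lineage-negative (Lin-) bone marrow cells, the fraction left after magnetic removal of cells with mature lineage markers, taken from the femur of mice that had received a second transplant. The 15 libraries comprised 3 from wild-type (WT) donor cells, 4 from Puma-/- cells, 4 from G3 mTerc-/-Puma+/+ cells and 4 labelled G3 mTerc-/-Puma-/-. Puma, listed as Bbc3, encodes a pro-apoptotic BH3-only protein that p53 induces, and mTerc encodes the RNA template of telomerase. G3 denotes the third generation of breeding without telomerase. By the study's methods the donors were young adult C57BL/6 J mice with constitutive deletions, and their stem and progenitor (LSK) cells were passed through 2 rounds of lethally irradiated CD45.1 hosts that carried neither deletion. The labels name no sort of the Lin- cells on a donor marker, so host cells may remain among them. Replicates carry numbers but the labels do not say that each came from its own animal, so p-values measure the spread between libraries. The comparisons below set these repair genes side by side in cells with or without Puma and with or without telomerase.

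Cells answer broken DNA and stalled replication through the kinases ATM and ATR, which signal to CHK2 and CHK1 and slow the cell cycle. At a break, phosphorylated histone H2AX recruits MDC1, RNF8, RNF168 and 53BP1, while the MRE11-RAD50-NBS1 complex, CtIP and EXO1 trim the ends so that RPA can coat the single strand. BRCA1, BARD1, PALB2 and BRCA2 prepare the strand for invasion of the sister copy, the Fanconi proteins open crosslinked DNA, and helicases and nucleases resolve the joined molecules. In marrow these pathways are known from Fanconi anaemia, an inherited marrow failure, and very short telomeres are known to signal through ATM and ATR. Much of this signalling acts through phosphorylation of the proteins, which RNA levels do not show.

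Replicate 2 of the group labelled G3 mTerc-/-Puma-/- was not among the libraries drawn in the study's heatmaps, and values below come from the other 14 libraries unless the 15th is named. It stood apart in its markers as well, with a summed erythroid level of 2060 CPM (counts scaled by TMM to a library of 1000000) beside 192 to 466 in the other 14. Library totals lay between 102790519 and 158367059 counts, and the members held from 61 to 39604 counts in a library. Progenitor genes such as Kit and Cd34 were present, with sums of 984 to 1510 CPM in the 14 libraries, as were neutrophil granule genes with sums of 12800 to 26900 CPM. In bulk RNA, fewer cells of a type and less RNA per cell cannot be told apart. The targeted genes were read first. Terc had 7 to 17 counts in WT, 4 to 11 in Puma-/- and 0 to 1 in the fitted libraries of both mTerc-/- genotypes. Mean Bbc3 (± SD over 3 WT, 4 Puma-/-, 4 G3 mTerc-/-Puma+/+ and 3 libraries of the last genotype) was 17.9 ± 7.27, 5.51 ± 0.866, 16.9 ± 4.45 and 15.3 ± 1.80 CPM in that order, so the last group did not show the low level of Puma-/-. It is therefore called the group labelled G3 mTerc-/-Puma-/-, or the last group. Genotype also went with sex. Xist was 464 to 865 CPM and Ddx3y at most 0.0446 CPM in Puma-/-, whereas Xist was at most 88.5 CPM and Ddx3y at least 42.6 CPM in G3 mTerc-/-Puma+/+. In WT, Xist was 1.72 to 416 CPM and Ddx3y 21.2 to 43 CPM, so Puma-/- stood apart from WT too. In the fitted libraries of the last group Xist was 0.386 to 659 CPM and Ddx3y 2.87 to 45.8 CPM. All 37 members lie on autosomes. Within G3 mTerc-/-Puma+/+, Xist was 40.2, 0.176, 88.5 and 50.6 CPM, so replicates 1, 3 and 4 held both transcripts. Libraries of other groups did as well, such as WT replicate 1 with 416 CPM of Xist and 21.2 CPM of Ddx3y. Another was replicate 1 of the last group with 659 and 2.87 CPM. Such libraries held RNA of female and of male cells, and the labels do not say whether these were donor or host cells.

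Per kilobase of exon, H2afx led with 176 CPM per kb over the 14 libraries. The length used was that of all annotated exons of a gene together, 23629 bases for Atr. A gene with many alternative exons therefore reads lower, and levels of different genes can be compared only roughly. H2afx encodes the histone variant phosphorylated at breaks. It was followed by the RPA subunits Rpa2 with 38.0 and Rpa1 with 37.1 CPM per kb, and by Topbp1, the activator of ATR, with 21.3 CPM per kb. At the other end were Atrip, the partner of ATR, with 0.121 CPM per kb and Rnf8, a ubiquitin ligase, with 0.566 CPM per kb. Both share exonic bases with a gene on the same strand, Atrip 16% of its bases with Trex1 and Rnf8 13.2% with Gm28043, and the STAR setting that assigns reads in shared bases is not given in the sources used here. The kinase genes Atr with 1.82 and Atm with 3.23 CPM per kb stood below their targets Chek1 with 6.88 and Chek2 with 11.4 CPM per kb. Without division by length, Atr with 43 CPM stood above Chek1 with 31.9 CPM, and Atm with 33.4 CPM was close to Chek2 with 34.1 CPM. Between the highest and the lowest of the 14 libraries, members differed by 1.12-fold (Mre11a) to 1.96-fold (Atrip), with 1.72-fold for Atm, 1.59-fold for Fancm and 1.58-fold for Slx4.

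**Figure D1:**
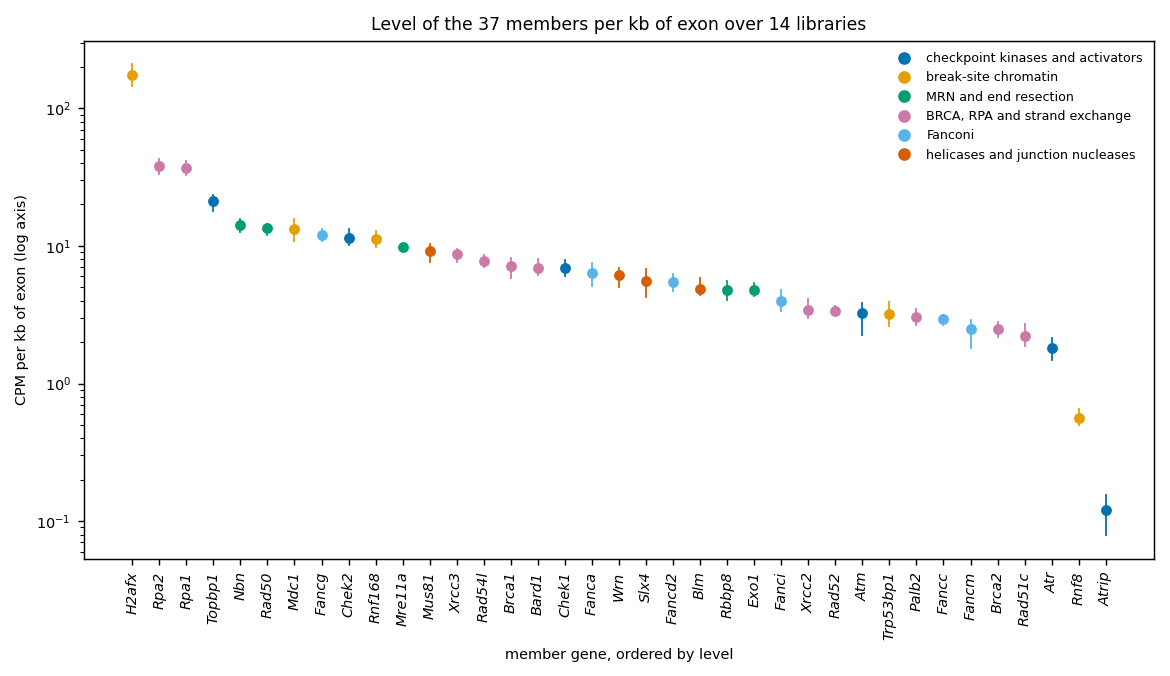
Level of each of the 37 members in CPM per kb of exon on a log axis, ordered from high to low. Points are means over the 14 fitted libraries, lines span the lowest to the highest library, and colours give the role. H2afx at 176 stands far above the rest and Atrip at 0.121 far below.

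The sequences before the start sites are shown for members that carry letters bound by cell cycle regulators, since S phase genes were read beside the members in the comparisons below. RefSeq windows (GRCm38.p6) of 250 bases before to 50 after a start site were found for 29 of 37 members, and not for H2afx, Rad50, Nbn, Rbbp8, Exo1, Xrcc2, Fancd2 and Wrn. Letters of E2F sites (TTTCCCGC, TTTGGCGC, TTTCGCGC or TTTGCCGC, either strand) occurred in the windows of 7 of the 29 members (24.1%), and in those of 2.60% of 27025 genes. The 7 were Chek2, Topbp1, Mdc1, Bard1, Brca2, Rad51c and Fancg. CCAAT, bound by NF-Y, occurred in 17 of 29 members (58.6%) and in 41.1% of all genes. The CHR letters TTTGAA were in 2 of 29 members (6.90%) beside 20.2% of all genes, the NRF1 motif in 0 of 29 beside 1.07%, and the p53 response element decamer, searched by its consensus, in 2 of 29, Fanca and Fancg, beside 9.55%. The 27025 genes are all those with a window, whether or not they were tested here, and shares over the tested genes were not computed. A match of letters is a description and does not show that a factor was bound.

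Stretches upstream of the start sites of 7 members are printed 5′ to 3′ on the strand of the gene, with E2F letters and CCAAT in capitals, on either strand (on the other strand CCAAT reads ATTGG). No printed stretch overlaps a gene in GENCODE vM21. Topbp1, Bard1, Chek2, Brca2 and Mdc1 are shown for their E2F letters, and Rad54l and Blm because they had the lowest p-values of the members in any comparison and hold CCAAT without E2F letters.
Topbp1, chr9:103305083-103305214, plus strand: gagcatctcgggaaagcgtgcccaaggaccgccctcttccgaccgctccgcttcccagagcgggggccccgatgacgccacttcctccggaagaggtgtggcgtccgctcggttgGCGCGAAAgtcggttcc
Bard1, chr1:71103147-71103222, minus strand: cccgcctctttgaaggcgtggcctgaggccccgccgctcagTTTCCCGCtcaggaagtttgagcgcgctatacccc
Chek2, chr5:110839783-110839978, plus strand: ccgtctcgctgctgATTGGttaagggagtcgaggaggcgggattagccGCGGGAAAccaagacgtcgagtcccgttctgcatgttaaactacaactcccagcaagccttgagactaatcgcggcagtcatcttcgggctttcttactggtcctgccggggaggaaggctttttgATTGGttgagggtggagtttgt
Brca2, chr5:150522421-150522620, plus strand: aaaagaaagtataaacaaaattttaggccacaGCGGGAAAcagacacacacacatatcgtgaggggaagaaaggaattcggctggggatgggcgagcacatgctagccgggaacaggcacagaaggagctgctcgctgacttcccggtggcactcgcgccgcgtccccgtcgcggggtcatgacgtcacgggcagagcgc
Mdc1, chr17:35841398-35841497, plus strand: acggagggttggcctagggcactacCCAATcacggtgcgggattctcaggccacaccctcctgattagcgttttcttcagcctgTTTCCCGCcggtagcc
Rad54l, chr4:116123691-116123790, minus strand: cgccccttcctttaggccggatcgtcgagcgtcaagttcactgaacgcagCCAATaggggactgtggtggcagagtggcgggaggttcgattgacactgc
Blm, chr7:80535120-80535198, minus strand: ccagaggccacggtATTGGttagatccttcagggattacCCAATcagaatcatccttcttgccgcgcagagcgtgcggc

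Among the checkpoint kinases and their activators, Atm, the kinase that answers broken ends, had 37.8, 31.2 and 26.9 CPM in the WT libraries, 36.3, 40.1, 23.3 and 33.5 CPM in Puma-/-, 32.9, 30.4, 40.1 and 37.6 CPM in G3 mTerc-/-Puma+/+, and 39.1, 30.8 and 27.6 CPM in the fitted libraries of the group labelled G3 mTerc-/-Puma-/- with 28.2 CPM in the 15th. The 4 genotypes overlapped. Atr, which answers stalled forks, had 49.9, 43.1 and 36.7 CPM in WT, 35.1, 44.1, 39.0 and 42.7 CPM in Puma-/-, 39.8, 50.3, 50.4 and 49.3 CPM in G3 mTerc-/-Puma+/+, and 38.2, 44.6 and 38.8 CPM in the last group with 43.7 CPM in the 15th. Of the G3 mTerc-/-Puma+/+ libraries 3 of 4 were above every Puma-/- library, and the fourth lay among them.

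Chek1, the kinase downstream of ATR, had 36.4, 28.9 and 31.0 CPM in WT, 28.0, 28.5, 30.2 and 31.0 CPM in Puma-/-, 30.5, 35.8, 34.4 and 36.6 CPM in G3 mTerc-/-Puma+/+, and 30.8, 33.7 and 30.3 CPM in the group labelled G3 mTerc-/-Puma-/- with 27.6 CPM in the 15th. Puma-/- and G3 mTerc-/-Puma+/+ overlapped through 1 library of G3 mTerc-/-Puma+/+. Chek2, downstream of ATM, had 32.9, 35.3 and 33.5 CPM in WT, 36, 32.6, 33.7 and 35.0 CPM in Puma-/-, 35.8, 30.4, 35.5 and 40.1 CPM in G3 mTerc-/-Puma+/+, and 33.8, 30.4 and 31.9 CPM in the last group with 38.4 CPM in the 15th. All genotypes overlapped for Chek2. Topbp1 ran from 200 to 261 CPM and Atrip from 0.565 to 1.11 CPM over the 14 libraries.

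Among the genes of chromatin at breaks, H2afx had 235, 267 and 272 CPM in WT, 218, 200, 289 and 231 CPM in Puma-/-, 255, 243, 228 and 248 CPM in G3 mTerc-/-Puma+/+, and 240, 224 and 270 CPM in the group labelled G3 mTerc-/-Puma-/-. The highest and the lowest of the 14 both came from Puma-/-, and the 15th library was lower than any of them with 143 CPM. Trp53bp1, whose product 53BP1 opposes end resection, had 44.5, 44.7 and 37.2 CPM in WT, 48.3, 55, 39.7 and 48.8 CPM in Puma-/-, 38.2, 43.4, 52.1 and 48.4 CPM in G3 mTerc-/-Puma+/+, and 49.9, 41.3 and 39.8 CPM in the last group with 46.5 CPM in the 15th. Rnf8 had 6.61, 7.03 and 7.35 CPM in WT, 5.83, 6.13, 7.70 and 6.33 CPM in Puma-/-, 6.15, 7.41, 6.73 and 6.71 CPM in G3 mTerc-/-Puma+/+, and 5.91, 6.12 and 6.73 CPM in the last group with 7.91 CPM in the 15th. No genotype stood apart for these genes. Mdc1, the H2AX reader, ran from 80.4 to 117 CPM and Rnf168, a ubiquitin ligase, from 44.0 to 57.5 CPM.

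Of the MRN complex and the end resection genes, Rbbp8, which encodes CtIP and lies on chromosome 18, had 66.8, 55.7 and 69.3 CPM in WT, 52.2, 50.9, 56.8 and 54.2 CPM in Puma-/-, 60.4, 67.2, 59.5 and 67.7 CPM in G3 mTerc-/-Puma+/+, and 58.0, 65.8 and 56.6 CPM in the group labelled G3 mTerc-/-Puma-/- with 47.6 CPM in the 15th. Every Puma-/- library was below every G3 mTerc-/-Puma+/+ library, while 1 WT library lay within the Puma-/- range. Exo1, the long-range exonuclease, had 38.5, 39.1 and 38.6 CPM in WT, 39.8, 38.8, 36.3 and 38.0 CPM in Puma-/-, 41.0, 45.2, 43.3 and 44.2 CPM in G3 mTerc-/-Puma+/+, and 37.9, 37.7 and 42.9 CPM in the last group with 38.2 CPM in the 15th. The 4 G3 mTerc-/-Puma+/+ libraries were above all WT and all Puma-/- libraries. The MRN genes varied little: Mre11a ran from 54.9 to 61.7 CPM, Rad50 from 64.6 to 78.1 CPM and Nbn from 32.0 to 39.9 CPM.

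In the BRCA, RPA and strand exchange group, Brca1 had 63.6, 58.7 and 60.7 CPM in WT, 65.6, 56.2, 50.1 and 60.6 CPM in Puma-/-, 63.7, 54.3, 67.3 and 70.0 CPM in G3 mTerc-/-Puma+/+, and 64.9, 55.1 and 61.4 CPM in the group labelled G3 mTerc-/-Puma-/- with 56.9 CPM in the 15th. The genotypes overlapped for Brca1. Its partner Bard1 had 45.4, 36.8 and 43.1 CPM in WT, 34.7, 35.4, 36.8 and 37.1 CPM in Puma-/-, 40.7, 40.7, 40.4 and 43.6 CPM in G3 mTerc-/-Puma+/+, and 43.2, 36.9 and 35.5 CPM in the last group with 29.9 CPM in the 15th. Puma-/- lay below G3 mTerc-/-Puma+/+ without overlap. Rpa1, the large RPA subunit, had 200, 200 and 230 CPM in WT, 189, 185, 211 and 184 CPM in Puma-/-, 216, 225, 206 and 209 CPM in G3 mTerc-/-Puma+/+, and 215, 213 and 215 CPM in the last group, whose 15th library had 162 CPM. The last group was above all Puma-/- libraries when the 15th was left out, and no longer when it was counted.

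Rad54l, a motor protein of strand exchange, had 58.0, 59.9 and 58.3 CPM in WT, 57.6, 53.8, 54.7 and 56 CPM in Puma-/-, 63.0, 65.6, 60.0 and 66.4 CPM in G3 mTerc-/-Puma+/+, and 62.0, 57.7 and 59.0 CPM in the group labelled G3 mTerc-/-Puma-/- with 47.5 CPM in the 15th. Puma-/- lay lowest, WT next and G3 mTerc-/-Puma+/+ highest, without overlap between these 3 genotypes. Of the exons of Rad54l 15.4% are shared with Lrrc41 on the opposite strand. Rad51c, a recombination mediator, had 10.5, 10.2 and 10.9 CPM in WT, 8.36, 8.21, 9.86 and 8.78 CPM in Puma-/-, 9.72, 9.28, 10.1 and 11.8 CPM in G3 mTerc-/-Puma+/+, and 8.99, 9.71 and 9.77 CPM in the last group with 5.47 CPM in the 15th. Xrcc2, another mediator, had 17.5, 19.4 and 15.7 CPM in WT, 16.8, 16.4, 17.6 and 17.2 CPM in Puma-/-, 18.2, 18.4, 20.8 and 21.3 CPM in G3 mTerc-/-Puma+/+, and 15.9, 16.9 and 18.8 CPM in the last group with 19.5 CPM in the 15th. The Puma-/- values of Rad51c lay below all of those of WT, and Xrcc2 was higher in every G3 mTerc-/-Puma+/+ library than in every Puma-/- library. The others were Palb2 with 19.6 to 25.4 CPM, Brca2 with 29.9 to 38.1 CPM, Rpa2 with 100 to 128 CPM, Xrcc3 with 21.0 to 26.2 CPM and Rad52 with 18.1 to 21.1 CPM.

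Among the Fanconi genes, Fancd2, the subunit that is ubiquitinated at crosslinks, had 42.8, 38.0 and 49.9 CPM in WT, 41.4, 38.0, 37.6 and 40.6 CPM in Puma-/-, 45.6, 49.8, 45.2 and 43.6 CPM in G3 mTerc-/-Puma+/+, and 46.4, 42.9 and 41.1 CPM in the group labelled G3 mTerc-/-Puma-/- with 42.3 CPM in the 15th. The 3 WT libraries covered nearly the whole range of the other genotypes, and Puma-/- lay below G3 mTerc-/-Puma+/+ without overlap. Fancg, of the core complex, had 43.8, 46.9 and 45.7 CPM in WT, 45.0, 41.1, 46.3 and 45.7 CPM in Puma-/-, 46.1, 47.0, 49.4 and 50.7 CPM in G3 mTerc-/-Puma+/+, and 45.3, 42.0 and 45.3 CPM in the last group with 43.1 CPM in the 15th. All 4 libraries of the group labelled G3 mTerc-/-Puma-/- were below all G3 mTerc-/-Puma+/+ libraries. Fanca ran from 44.9 to 65.6 CPM, Fancc from 22.1 to 26.4 CPM, Fancm, a translocase, from 19.0 to 30.2 CPM, and Fanci, the partner of FANCD2, from 19.3 to 27.7 CPM. Among the helicases and nucleases, the helicase gene Blm had 45.0, 39.6 and 44.4 CPM in WT, 40.2, 40.2, 38.6 and 39.1 CPM in Puma-/-, 41.3, 50.9, 45.3 and 47.9 CPM in G3 mTerc-/-Puma+/+, and 42.9, 43.4 and 40.8 CPM in the last group with 43.5 CPM in the 15th. Puma-/- was below both mTerc-/- genotypes without overlap. Wrn, a helicase, ran from 38.0 to 52.4 CPM, Mus81, a junction nuclease, from 27.2 to 37 CPM, and Slx4, its scaffold, from 32.8 to 51.9 CPM.

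**Figure D2:**
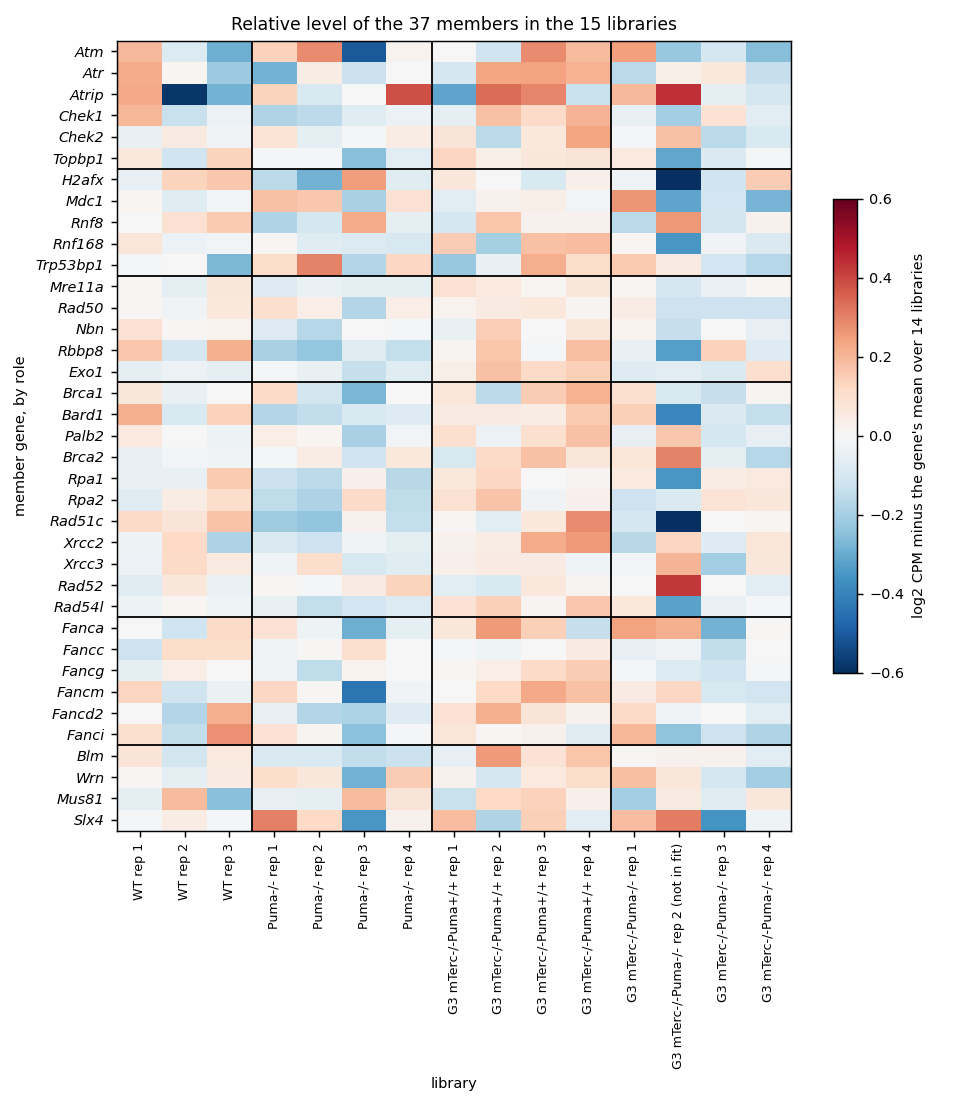
Log2 CPM of the 37 members (rows, by role) in the 15 libraries (columns, by genotype) minus the mean of the gene over the 14 fitted libraries, with colours ending at -0.6 and 0.6. Columns of G3 mTerc-/-Puma+/+ are mostly red, replicate 3 of Puma-/- holds the lowest value of 12 members, and the library outside the fit departs in both directions.

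The libraries were not alike within a genotype. Replicate 3 of Puma-/- gave the lowest of the 14 values for 12 members, and replicate 4 of G3 mTerc-/-Puma+/+ the highest for 9. In replicate 3 of Puma-/- the members with more than 7342 exonic bases had a median deviation of -0.18 from their own log2 means, and the shorter members -0.01. All tested genes showed the same order there, with a median deviation of -0.10 for the 4721 genes above 5873 exonic bases and 0.12 for the 4720 genes below 1750 bases. Other libraries differed by length too. In replicate 2 of G3 mTerc-/-Puma+/+ the long genes were at -0.0463 and the short at 0.127, but the longer members at 0.118 and the shorter at 0.0484. In replicate 1 of the group labelled G3 mTerc-/-Puma-/- the long genes were at 0.0818 and the short at -0.133. The part of such differences by length in the values of long members such as Atm, Brca1, Fancm and Slx4 was not tested.

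G3 mTerc-/-Puma+/+ was compared with Puma-/- because here the members differed most. The comparison was thus chosen by its result, and the counts and p-values below were not corrected for that choice. These genotypes differ in both telomerase and Puma, so the comparison isolates the loss of neither. Of the 37 members, 30 had higher mean levels in G3 mTerc-/-Puma+/+ (81.1%, beside 49.9% of all genes tested), with a median log2 fold change of 0.12, a 1.08-fold difference. No member passed the threshold of 0.05 on the adjusted p (0 of 37, beside 0.801% of all genes, quasi-likelihood F-test of edgeR, Benjamini-Hochberg adjusted over all genes). At an unadjusted p under 0.05 there were 12 members (32.4%), all higher in G3 mTerc-/-Puma+/+, beside 8.19% of all genes higher and 17.1% in either direction. They were Rad54l, Blm, Rbbp8, Exo1, Fancd2, Chek1, Bard1, Mre11a, Xrcc2, Rpa1, Atr and Topbp1, and 9 of them, all but Chek1, Rpa1 and Atr, had no overlap between the genotypes, beside 4.94% of all genes without overlap and higher.

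In the fit of 14 libraries, Rad54l had the lowest p of any member in any comparison. The gene lies at chr4:116094264-116123690 on the minus strand (GRCm38). Its mean was 63.7 ± 2.91 CPM (SD, n = 4) with telomerase lost and 55.5 ± 1.68 CPM (n = 4) with Puma lost, giving a log2 fold change of 0.20 (SE 0.0523, edgeR adjusted p = 0.0845). For Blm (chr7:80454733-80535119, minus strand), with 46.4 ± 4.08 and 39.5 ± 0.782 CPM, the log2 fold change was 0.23 (SE 0.0684, edgeR adjusted p = 0.119). For Rbbp8, with 63.7 ± 4.35 and 53.5 ± 2.60 CPM, it was 0.25 (SE 0.0804, edgeR adjusted p = 0.142). Each of the 3 was higher in 4 of 4 libraries than in all 4 of the other genotype (p = 0.0286 in the exact two-sided permutation over libraries, as low as 4 against 4 allow). DESeq2 called 2 members in this comparison, Rad54l (adjusted p = 0.0102) and Blm (adjusted p = 0.0358). Of the 95% intervals, 37 of 37 lay within 1.5-fold in either direction, so that differences above that size lay outside the interval of every member. Without replicate 4 of G3 mTerc-/-Puma+/+ or without replicate 2 of Puma-/- there were 6 members under 0.05 in place of 12, and without replicate 1 of Puma-/- there were 7. With all 15 libraries there were 9. Blm then had the lowest p in this comparison (edgeR adjusted p = 0.21), and Rad54l had an edgeR adjusted p of 0.304.

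By role, the members higher at an unadjusted p under 0.05 were 3 of 5 of the MRN and resection genes, 4 of 11 of the BRCA, RPA and strand exchange genes, 3 of 6 of the checkpoint genes, 1 of 6 Fanconi genes, 1 of 4 helicase and nuclease genes and 0 of 5 genes of chromatin at breaks. The MRN and resection genes were all 5 higher, with log2 fold changes of 0.03 to 0.25. The chromatin genes had a median of 0.05, with Trp53bp1 at -0.075 and Mdc1 at -0.0687.

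**Figure D3:**
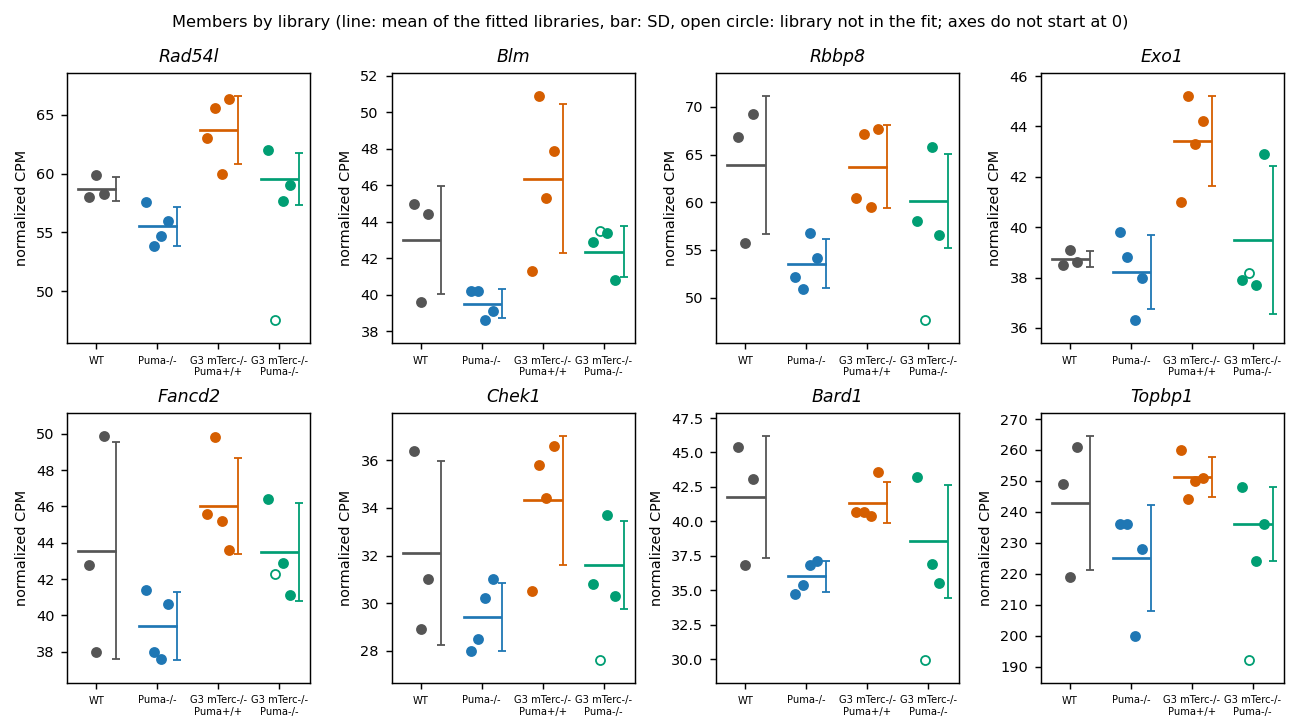
Normalized CPM in each library for 8 of the 12 members below 0.05 (unadjusted p) when G3 mTerc-/-Puma+/+ was set against Puma-/-, by genotype. Lines are means and bars SDs of the fitted libraries, open circles mark the library outside the fit, and axes do not start at 0. Rad54l means were 63.7 and 55.5 CPM, and the groups did not overlap for any of the 8 but Chek1.

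The genes of proliferation differed in the same comparison. The 16 S phase genes, such as the Mcm genes and Pcna, were all higher in G3 mTerc-/-Puma+/+ than in Puma-/- (median log2 fold change 0.15), with 2 past the adjusted threshold, and so were the 12 G2/M genes (median 0.24), also with 2 past it. The members summed to 1980 to 2030 CPM in Puma-/- and 2140 to 2190 CPM in G3 mTerc-/-Puma+/+, the S phase genes to 3450 to 3790 and 3760 to 4380 CPM, and the G2/M genes to 2620 to 2710 and 2870 to 3190 CPM. In WT the members summed to 2050 to 2170 CPM, the S phase genes to 3690 to 4320 CPM and the G2/M genes to 2780 to 3340 CPM. With the log2 S phase sum as a covariate, an alternative chosen after seeing the data, 6 members had an unadjusted p under 0.05 in place of 12, and the median log2 fold change was 0.12. Sex and megakaryocyte genes also separated these 2 genotypes, the latter with sums of 352 to 580 CPM in Puma-/- and 170 to 234 CPM in G3 mTerc-/-Puma+/+. All 11 B lymphoid genes were lower in G3 mTerc-/-Puma+/+ (median log2 fold change -0.51, 2 past the adjusted threshold), and sex and genotype cannot be told apart between these 2 groups. With the log2 level of Xist as a covariate in the fit of all 4 genotypes, 9 members had an unadjusted p under 0.05 and the median was 0.15. The part of cell proliferation, sex, megakaryocyte and B lymphoid RNA in the members' differences was not tested further.

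**Figure D4:**
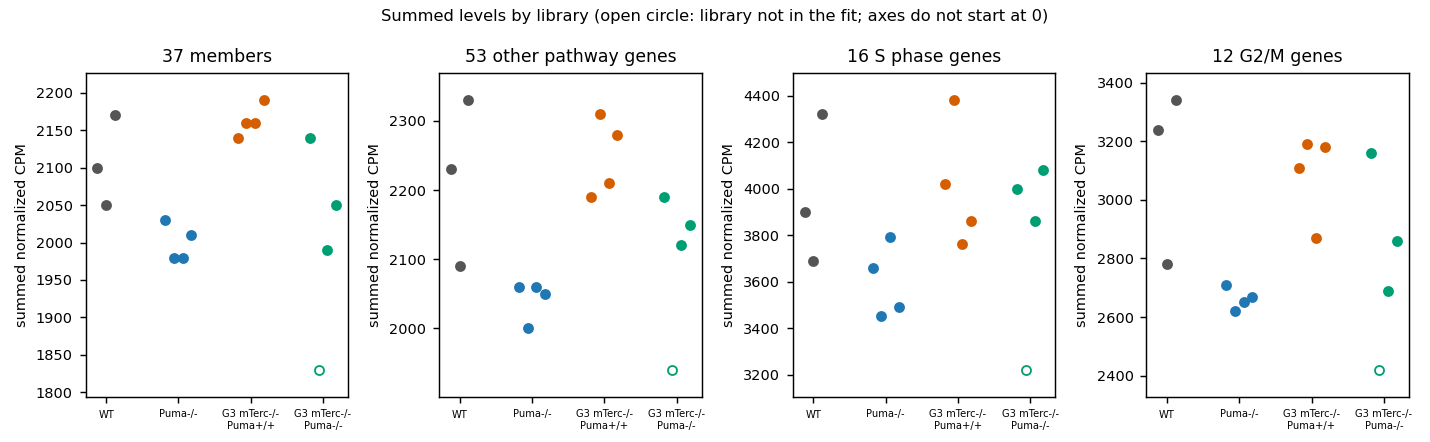
Summed normalized CPM in each library for the 37 members, 53 other genes of the same pathways, 16 S phase genes and 12 G2/M genes, by genotype. Open circles mark the library outside the fit, and axes do not start at 0. For the members, Puma-/- libraries lie between 1980 and 2030 CPM and G3 mTerc-/-Puma+/+ libraries between 2140 and 2190 CPM.

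Telomerase loss with Puma present was read from G3 mTerc-/-Puma+/+ against WT. Of the 37 members 28 were higher (75.7%, beside 54.5% of all genes), with a median log2 fold change of 0.0653 (0.0362 without WT replicate 1, 0.0393 without WT replicate 2 and 0.04 without G3 mTerc-/-Puma+/+ replicate 1), and 0 of 37 passed the adjusted threshold (beside 0.0369% of all genes, edgeR). At an unadjusted p under 0.05 there was 1 member, Exo1 (beside 1.59% of all genes higher and 3.86% in either direction). Exo1 had 43.4 ± 1.77 CPM (SD, n = 4) beside 38.8 ± 0.328 CPM in WT (n = 3), a log2 fold change of 0.16 (SE 0.0646, edgeR adjusted p = 0.998). Rad54l followed with 0.12 (SE 0.0566, edgeR adjusted p = 0.998) and Xrcc2 with 0.17 (SE 0.0980, edgeR adjusted p = 0.998). Exo1 and Rad54l were higher in 4 of 4 libraries without overlap (p = 0.0571 for each in the exact two-sided permutation, where 0.0286 is the lowest possible), beside 1.95% of all genes without overlap and higher. Atm had a log2 fold change of 0.14 with a 95% interval of -0.244 to 0.525, and Atr 0.13 with -0.12 to 0.39. Without replicate 4 of G3 mTerc-/-Puma+/+ or replicate 1 of WT 0 members were under 0.05, and without replicate 3 of G3 mTerc-/-Puma+/+ or replicate 2 of WT 2 were. Of 37 intervals 36 lay within 1.5-fold and all within 2-fold, the widest being that of Atrip.

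Puma loss with telomerase present was read from Puma-/- against WT. Here 10 of 37 members were higher (27.0%, beside 50.9% of all genes) and 27 lower, with a median log2 fold change of -0.07, and 0 of 37 passed the adjusted threshold (beside 0.079% of all genes, edgeR). At library size alone, without TMM scaling, the median was -0.00158. The members with an unadjusted p under 0.05 were 3, all lower (beside 4.38% of all genes lower and 10.1% in either direction). Rbbp8 averaged 53.5 ± 2.60 CPM in Puma-/- (SD, n = 4) beside 64.0 ± 7.23 CPM in WT (n = 3), a log2 fold change of -0.26 (SE 0.0865, edgeR adjusted p = 0.403). Bard1 was at -0.22 (SE 0.0834, edgeR adjusted p = 0.435) and Rad51c at -0.26 (SE 0.110, edgeR adjusted p = 0.464). For each, the exact two-sided permutation test gave p = 0.0571, and the smallest possible is 0.0286. Rad51c, Nbn and Rad54l were lower in Puma-/- without overlap, beside 4.21% of all genes. Without replicate 3 of WT 0 members were under 0.05, without replicate 1 of WT 1 member was, and without replicate 2 of WT or replicate 3 of Puma-/- 6 were, all lower. All 12 G2/M genes and all 16 S phase genes were lower in Puma-/- in the same comparison, none past the adjusted threshold. All 6 megakaryocyte genes were higher (median log2 fold change 1.14, 6 at an unadjusted p under 0.05, 0 past the adjusted threshold). The part of these genes was not tested beyond the S phase covariate, with which 0 members were under 0.05, and with all 15 libraries 1 was.

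The group labelled G3 mTerc-/-Puma-/- was compared with WT, with Puma-/- and with G3 mTerc-/-Puma+/+. Against WT, 8 of 37 members were higher (21.6%, beside 50% of all genes) with a median log2 fold change of -0.0384, which was 0.01 at library size alone, -0.0661 without replicate 1 and -0.0173 without replicate 3 of the last group, and 0 of 37 passed the adjusted threshold (beside 0.0632%, edgeR). At an unadjusted p under 0.05 there were 0 of 37 as well, beside 5.45% of all genes. Palb2 and Rad51c were lower in 3 of 3 libraries without overlap, beside 3.2% of all genes, but Palb2 was 25.1 CPM in the 15th library, above every WT library. Without replicate 1 of the last group or replicate 2 of WT 1 member was under 0.05, lower in each case. The lowest p-values belonged to Bard1 with a log2 fold change of -0.12 (SE 0.0894), Rad51c with -0.15 (SE 0.118) and Rnf8 with -0.16 (SE 0.131), each with an edgeR adjusted p of 1. With 3 against 3 libraries the exact permutation test cannot go below 0.10.

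Against Puma-/-, 21 of 37 members were higher (56.8%, beside 52.1% of all genes) with a median of 0.0151, which was -0.00259 at library size alone and -0.0164 without replicate 1 of the group labelled G3 mTerc-/-Puma-/-, and 0 of 37 passed (beside 0.306% of all genes, edgeR). Only Rpa1 had an unadjusted p under 0.05 (beside 3.51% of all genes higher and 8.42% in either direction). Rpa1 had 214 ± 1.36 CPM (SD, n = 3) beside 192 ± 12.6 CPM in Puma-/- (n = 4), which gave a log2 fold change of 0.16 (SE 0.0712, edgeR adjusted p = 0.585), which was 0.06 with all 15 libraries. In that fit 0 members had an unadjusted p under 0.05. There were 0 as well without any of 9 of the 14 libraries, but 3 without replicate 3 of Puma-/- and 2 without replicate 2 of WT, all higher, and 1 lower without replicate 1 of the last group. The median was 0.0417 without replicate 3, 0.0407 without replicate 4 of the last group, 0.027 without replicate 1 and 0.0253 without replicate 4 of Puma-/-. Rbbp8 was at 0.17 (SE 0.0866, edgeR adjusted p = 0.643) and Rad54l at 0.10 (SE 0.0564, edgeR adjusted p = 0.681), and with all 15 libraries these were 0.0897 and 0.0257. Mre11a and Blm were above Puma-/- in 3 of 3 libraries, as were Rpa1 and Rad54l, beside 3.98% of all genes without overlap and higher. The 15th library lay below every Puma-/- library for Mre11a (54.1 CPM), Rad54l (47.5 CPM) and Rpa1 (162 CPM), so that the separation held only for Blm (43.5 CPM) when it was counted. All 6 megakaryocyte genes were lower in the last group (median log2 fold change -2, 5 past the adjusted threshold), and 10 of 11 B lymphoid genes were higher (median 0.968, 1 past it). Also higher were all 16 S phase genes (median 0.135), 11 of 12 G2/M genes (median 0.143) and all 10 erythroid genes (median 1.51), 0 past it. The part of these genes was not tested beyond the S phase covariate, with which 0 members had an unadjusted p under 0.05. Ddx3y was at least 2.87 CPM in the fitted libraries of the last group and at most 0.0446 CPM in Puma-/-. With the Xist covariate 0 members were under 0.05.

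Against G3 mTerc-/-Puma+/+, which shares the loss of telomerase, 2 of 37 members, H2afx and Rpa1, were higher (5.41%, beside 46.3% of all genes) and 35 lower, with a median log2 fold change of -0.09. No member passed the adjusted threshold (0 of 37, beside 0.0738% of all genes, edgeR), and 0 of 37 had an unadjusted p under 0.05, beside 6.22% of all genes. Exo1 was at -0.14 (SE 0.0645, edgeR adjusted p = 0.800), Fancg at -0.13 (SE 0.0635, edgeR adjusted p = 0.824) and Xrcc2 at -0.19 (SE 0.0980, edgeR adjusted p = 0.830). Fancg and Palb2 were lower in 3 of 3 libraries without overlap, beside 2.40% of all genes. The 15th library, with 25.1 CPM, ended this for Palb2 and, with 43.1 CPM, did not for Fancg. The lowest log2 fold change was that of Atr with -0.23 and a 95% interval of -0.48 to 0.03. Of 37 intervals, 37 lay within 1.5-fold. Here the 12 G2/M genes were all lower (median -0.11), whereas 7 of 16 S phase genes were higher (median -0.01). Cell type markers also differed: all 11 B lymphoid genes were higher in the last group (median log2 fold change 2.56, 3 past the adjusted threshold), as were all 10 erythroid genes (median 1.48, 0 past it). Ddx3y was at least 42.6 CPM in G3 mTerc-/-Puma+/+, and 2.87, 45.8 and 4.25 CPM in the fitted libraries of the last group. The part of these genes in the members' values was not tested further. With the Xist covariate 4 members had an unadjusted p under 0.05, all lower, and with the S phase covariate 0 did. With all 15 libraries 3 members, Exo1, Fancg and Rad54l, had an unadjusted p under 0.05, all lower, and the median was -0.09. Without replicate 1 of the group labelled G3 mTerc-/-Puma-/- the median was -0.14 and 2 members were under 0.05, and without replicate 2 of G3 mTerc-/-Puma+/+ there were 4, without its replicate 1 there were 3, and without replicates 3 and 4 of the group labelled G3 mTerc-/-Puma-/- in turn 1 and 2, all lower.

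**Figure D5:**
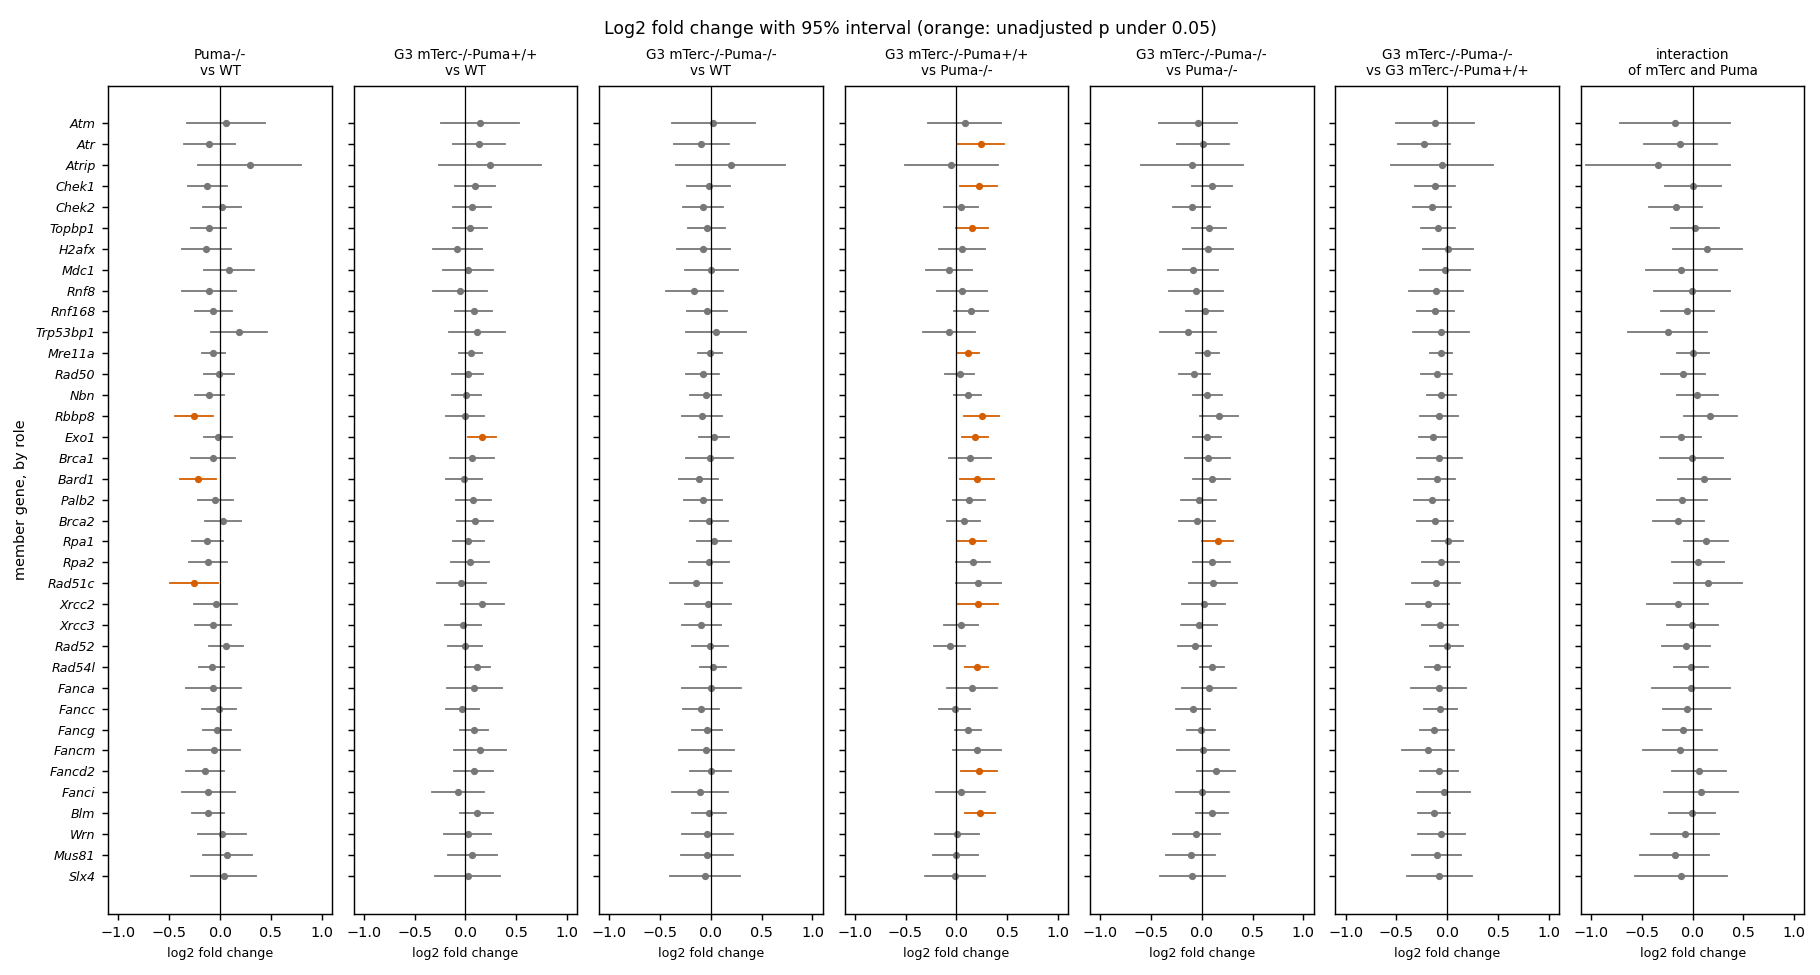
Log2 fold change of each of the 37 members (rows, by role) with its 95% interval in the 6 comparisons of genotypes and in the interaction of mTerc and Puma (columns). Orange marks an unadjusted p under 0.05, which 12 members reached in G3 mTerc-/-Puma+/+ against Puma-/-, and the points run from -0.341 (Atrip, interaction) to 0.291 (Atrip, Puma-/- against WT).

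The mTerc by Puma interaction term compares the difference with telomerase loss between the groups labelled with and without Puma. Mean Bbc3 was 15.3 CPM in the last group, 17.9 CPM in WT and 5.51 CPM in Puma-/-. The term thus rests on the label of the last group, and dependence on Puma cannot be read from it alone. Of the 37 members 12 were above 0 (32.4%, beside 48.8% of all genes) with a median of -0.05 on the log2 scale, 0 of 37 passed the adjusted threshold (beside 0.0527% of all genes, edgeR) and 0 of 37 had an unadjusted p under 0.05 (beside 4.93%). Rbbp8 had an interaction of 0.17 (SE 0.123), Chek2 of -0.17 (SE 0.121) and Trp53bp1 of -0.25 (SE 0.182), each with an edgeR adjusted p of 0.999. Without replicate 3 of Puma-/- 2 members were under 0.05, above 0, and without replicate 2 of WT 1 was, whereas without replicate 2 of G3 mTerc-/-Puma+/+ or replicate 1 of the last group 1 was under 0.05, below 0. The median was between -0.0281 and -0.0154 without replicate 1 of WT, 1 or 4 of Puma-/-, or 3 or 4 of the last group, in turn. Intervals were wider than in the other comparisons, with 34 of 37 within 1.5-fold and that of Atrip reaching 2.07-fold. Outside G3 mTerc-/-Puma+/+ against Puma-/-, DESeq2 and limma-voom also put 0 members past the adjusted threshold, and in that comparison limma-voom put 0. These comparisons share libraries, so that counts in one are not independent of counts in another.

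Another 53 genes of the same pathways, from lists chosen with earlier results of these data known, were read in the same fit. Between G3 mTerc-/-Puma+/+ and Puma-/- 46 of the 53 were higher (beside 49.9% of all genes), with a median log2 fold change of 0.135, and 1 passed the adjusted threshold (beside 0.801% of all genes). It was Etaa1, an activator of ATR, with a log2 fold change of 0.33 (SE 0.0698, edgeR adjusted p = 0.0491). At an unadjusted p under 0.05 there were 17, all higher (beside 8.19% of all genes higher and 17.1% in either direction). By role, all 18 homologous recombination genes and all 11 genes of the checkpoint clamp and its mediators were higher, as were 8 of 10 genes of chromatin at breaks and 9 of 14 Fanconi genes. In the other 6 comparisons 0 of the 53 passed the adjusted threshold in edgeR, and at an unadjusted p under 0.05 there were 8 in Puma-/- against WT (all lower, beside 4.38% of all genes lower) and 3 in G3 mTerc-/-Puma+/+ against WT (all higher, beside 1.59% of all genes higher). For the last group there was 1 against WT (beside 5.45% of all genes), 2 against Puma-/- (beside 8.42%) and 3 against G3 mTerc-/-Puma+/+ (beside 6.22%), and for the interaction there was 1 (beside 4.93%).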

How the data were processed

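RNA of Lin- bone marrow cells was sequenced in 15 libraries made with the TruSeq Stranded mRNA kit. Per the labels, reads were trimmed with Trimmomatic 0.38 and aligned to mm10 (GRCm38) with STAR 2.5.2b. The authors deposited raw counts per gene from STAR, not normalized. The strand setting and the annotation release are not given in the sources used here. Reads in bases that overlapping genes share may thus have been counted for either gene or for none. Library totals were 102790519 to 158367059, so that 3 counts correspond to at most 0.0292 CPM. Identifiers without a symbol (563) held 0.0643% of the counts and were kept in the library totals and in the filter. The test was edgeR 4.0.16 (R 4.3.3): TMM normalization (factors 0.926 to 1.07), a filter on low counts (filterByExpr), and a quasi-likelihood fit of 14 libraries and 4 genotypes, with Benjamini-Hochberg adjustment over 18983 genes in each of 7 comparisons and a threshold of 0.05. CPM are TMM-normalized counts per 1000000. CPM of the 15th library used its factor from the fit of all 15 libraries, and those of the others the factors of the 14-library fit. The common biological coefficient of variation was 0.251. Between replicates, counts varied beyond counting error. Exact two-sided permutation tests over libraries were run for single members. Coordinates and exonic lengths are from GENCODE vM21, and promoter sequences are from RefSeq (GRCm38.p6).

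All members are named with their levels. Fold changes with errors are given for the 3 members with the lowest p in each comparison, and values of every library for these and for Atm, Atr, Chek1, Chek2, Brca1, Fancd2 and H2afx. Other genes of the pathways are named where they passed the threshold. Values of other members were chosen after they were seen. 1 gene of the other pathway lists is not reported here. The members and lists were chosen with earlier results of these data known. Alternatives were all 15 libraries, 2 other scalings, 2 other filters on low counts, a replicate block, the compared genotypes alone, DESeq2 1.42.0, limma-voom (limma 3.58.1), an Xist covariate, each library left out, and, added after seeing the data, an S phase covariate. The lists of S phase, G2/M and cell type genes were summed per library.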

Additional observations from a re-analysis of the deposited data

Results flagged for a closer look

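In 8 of 111 groups of 4 libraries, 1 library lay far from the other 3, with a gap to the nearest above Dixon's critical value as a share of the group's range. Chance flags about 1 in 20 groups. In G3 mTerc-/-Puma+/+, Atr was 39.8 CPM in replicate 1 beside 49.3 to 50.4, Rnf168 was 44.0 CPM in replicate 2 beside 56.1 to 57.5, and Bard1 was 43.6 CPM in replicate 4 beside 40.4 to 40.7. In Puma-/-, Rpa2 was 123 CPM in replicate 3 beside 100 to 102. In the group labelled G3 mTerc-/-Puma-/-, Rad50 was 75.1 CPM in replicate 1 beside 66.8 to 66.9, and Exo1 was 42.9 CPM in replicate 4 beside 37.7 to 38.2. In replicate 2 of these libraries, which was outside the fit, Rpa1 was 162 CPM beside 213 to 215 and Rad52 was 25.8 CPM beside 18.4 to 19.3.

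The library outside the fit also exceeded all 14 fitted libraries for 6 members. Its scaling came from a separate fit of all 15 libraries, so small gaps such as that of Slx4 are uncertain. Atrip was 1.15 CPM beside 0.565 to 1.11, Rnf8 was 7.91 CPM beside 5.83 to 7.70 and Brca2 was 41.4 CPM beside 29.9 to 38.1. Xrcc3 was 27.8 CPM beside 21.0 to 26.2, Rad52 was 25.8 CPM beside 18.1 to 21.1 and Slx4 was 52.1 CPM beside 32.8 to 51.9. Its summed erythroid level was 2060 CPM and its S phase sum 3220 CPM, and their part in these values was not tested.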

How the results depend on the processing

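The count of members past the adjusted threshold was 0 in every fit run but 1 (the compared genotypes alone give no interaction): DESeq2 called 2 members between G3 mTerc-/-Puma+/+ and Puma-/-, Rad54l (log2 fold change 0.20, adjusted p = 0.0102) and Blm (0.23, adjusted p = 0.0358). The cause was not tested. With each library left out in turn the count was 0 to 0 in every comparison. Of 905 alternative values 896 were rated the same, and 0 fold changes of single members changed sign. A count of members had to stay, and a median had to lie within the replicate spread. A single fold change had only to keep its sign and its side of the threshold. Its size was not compared with that spread. Rad51c in the last group against WT ran from -0.384 to -0.0961, beside -0.147 in the main fit. The medians that moved by more than that spread were, at library size alone, -0.00158 (Puma-/- against WT), 0.0109 (the group labelled G3 mTerc-/-Puma-/- against WT), 0.0773 (G3 mTerc-/-Puma+/+ against Puma-/-) and -0.0854 (interaction), then -0.14 without replicate 1 of the last group (against G3 mTerc-/-Puma+/+) and -0.0154 without replicate 1 of Puma-/- (interaction). Over all genes, calls between G3 mTerc-/-Puma+/+ and Puma-/- numbered 152, but 996 with DESeq2, 43 with the replicate block, 18 with the Xist covariate, 15 with the S phase covariate and 24 with all 15 libraries. In the other comparisons edgeR called 15 (Puma-/- against WT), 7 (G3 mTerc-/-Puma+/+ against WT), 12, 58 and 14 (the last group against WT, Puma-/- and G3 mTerc-/-Puma+/+) and 10 genes (interaction), and DESeq2 136, 46, 91, 287, 172 and 64 in the same order. The replicate block gave 21 in place of 58. Members under an unadjusted p of 0.05 between G3 mTerc-/-Puma+/+ and Puma-/- numbered 5 at library size alone.

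Deviations of same-numbered libraries were weakly correlated: r ran from -0.253 to 0.175 over 18 pairs, and 3 exceeded 0.1. The labels do not say what the numbers stand for. With so few libraries per genotype, weak correlations cannot exclude that the numbers pair the samples. With the replicate block, 0 members passed in each comparison, and 9 members were under an unadjusted p of 0.05 between G3 mTerc-/-Puma+/+ and Puma-/-. At these depths counting error is small beside the spread between libraries, which limits the tests.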

Other observations

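On its separate scaling, the library outside the fit lay below all 14 fitted libraries for 11 members. Among them H2afx was 143 CPM, Topbp1 192 CPM, Mdc1 78.4 CPM, Rad54l 47.5 CPM and Rad51c 5.47 CPM, and the others were Chek1, Rnf168, Mre11a, Rbbp8, Bard1 and Rpa1. Its members summed to 1830 CPM.

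Trp53 itself stood at 212 ± 8.37 CPM in WT (SD, n = 3), 206 ± 11 CPM in Puma-/- (n = 4), 213 ± 6.97 CPM in G3 mTerc-/-Puma+/+ (n = 4) and 211 ± 20.3 CPM (n = 3) in the last group. Cdkn1a encodes the cell cycle inhibitor p21. It stood at 40.0 ± 17.2, 24.7 ± 1.53, 57.1 ± 16.3 and 92.3 ± 15.9 CPM in the same order, and at 167 CPM in the library outside the fit. The relation of Cdkn1a to the levels of the members was not tested.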
